A study of Homo sapiens with 4 samples.

Results

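Hepatocyte growth factor (HGF), its receptor MET, the proteases HGFAC and ST14 and the protease inhibitors SPINT1 and SPINT2 were followed in a human glioblastoma line sorted by its ability to invade brain tissue. These 6 genes were taken by name, out of 29387 genes counted in every library, and 2 of them, HGF and MET, passed the filter on low counts that left 14231 genes for testing. The genes were chosen by the measured HGF counts, which were lower in invasive than in control cells, so the levels of all 6 in invasive and control populations are given as a description, with no test. Invasive populations 1 and 2 were U87MG cells recovered after 1 week of invasion into cultured brain slices in neural stem cell medium containing FGF and EGF, and control populations 1 and 2 were poorly invasive U87MG cells from the same kind of culture. All 4 were expanded for 3 to 5 days before RNA extraction and were otherwise untreated, each gave 1 strand-specific mRNA library, and invasive 1 was set against control 1 (pair 1) and invasive 2 against control 2 (pair 2), as the study's design states. The design text calls the invasive populations independently derived clones. U87MG is a long-established line grown from a malignant glioma and was kept in serum-containing medium before the slice culture; the labels name no species for the brain slices.

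HGF is a secreted growth and scatter factor made mainly by mesenchymal cells. It is released as an inactive precursor that serine proteases must cut before it can switch on MET, a receptor tyrosine kinase that signals through GAB1, GRB2, ERK, PI3K and STAT3 to cell motility, survival and growth. HGFAC (HGF activator, a plasma protease) and ST14 (matriptase, a membrane protease of epithelia) make that cut, and SPINT1 and SPINT2 (HAI-1 and HAI-2) are membrane-bound Kunitz inhibitors of both. Glioblastomas, U87MG among them, are known for making HGF and MET together, so that a cell can answer its own ligand.

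Total counts ran from 13829871 in invasive 2 to 17817756 in control 1, and the level of 3 counts, up to which a gene with no count could have been present, was 0.168 to 0.217 CPM (counts scaled to a library total of 1000000) across the libraries. This limit and the intervals below cover counting error only. Of 8 markers set for a glioma line, VIM, NES, CD44 and TNC had over 100 counts in each library, whereas SOX2, S100B and GFAP had 0 to 4 and OLIG2 had 9 to 31. Among markers of other cell types, 1 of 4 leukocyte and microglial genes in the files, 1 of 4 endothelial, 1 of 4 oligodendrocyte and 1 of 3 astrocyte genes were at 0 in all 4 libraries (P2RY12, CLDN5, MOG and AQP4), and 0 of 4 neuronal genes were. CSF1R, a macrophage receptor, had 140 to 379 counts, whereas the leukocyte gene PTPRC had 0 or 1 and the microglial gene CX3CR1 had 0 to 2. The neuronal genes SNAP25 and GAD1 had 364 to 622 and 212 to 300 counts, whereas SYT1 had 74 to 134 and RBFOX3 had 0 to 2. Summed levels for leukocytes and microglia were 10.2 to 18.2 CPM in invasive and 10.8 to 21.4 CPM in control libraries, nearly all of it CSF1R. For neurons they were 52.6 to 62.5 CPM in invasive and 57.1 to 59.1 CPM in control libraries.

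The start regions of the ligand and receptor genes are shown because the transcript levels of these genes differed, HGF lying between 10.4 and 48.1 CPM and MET between 503 and 638 CPM. The bearing of these sequences on the levels was not tested. Both genes lie on chromosome 7, HGF at 81699006 to 81770438 on the minus strand and MET at 116672390 to 116798386 on the plus strand (GRCh38, as in the deposited files). The lines below give the same stretch of each gene, from 243 to 152 bases before the RefSeq start site (build GRCh38.p14), at chr7:81770199-81770290 for HGF and chr7:116671953-116672044 for MET. Both read 5′ to 3′ on the gene's own strand, and capitals mark CpG dinucleotides. The deposited files bound HGF by an outer start that lies before the RefSeq start, so the HGF stretch falls inside the gene as the files place it, in no GENCODE 29 exon, whereas the MET stretch lies before the gene.
HGF: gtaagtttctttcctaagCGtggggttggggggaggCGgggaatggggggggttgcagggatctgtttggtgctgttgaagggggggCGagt
MET: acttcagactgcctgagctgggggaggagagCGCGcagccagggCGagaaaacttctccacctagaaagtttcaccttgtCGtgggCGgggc
Over the whole 250 bases before the start site the HGF window had 6 CpG dinucleotides and a GC content of 50%, and the MET window had 24 and 68.4%. Bases of GENCODE 29 exons border the HGF stretch on both sides, so the HGF window is partly annotated exon. The MET window lies wholly before the gene as the files place it. Among 35116 such windows in the RefSeq table, 38.1% had fewer CpG dinucleotides than HGF and 76.3% had fewer than MET. The GC box GGGCGG, searched on both strands, occurred in the MET window with first bases 160 and 95 bases before the start and was not found in the HGF window. It was found in 42.6% of all windows. The CCAAT box (CCAAT, 32.0% of all windows), the TATA box (TATAAA, 10.7%) and the AP-1 site (TGACTCA, 4.2%) were found in neither. Windows for HGFAC and SPINT1 were also in the table, so that 4 of the 6 genes matched by symbol; SPINT1 had 2 entries. ST14 and SPINT2 had none.

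The ligand was lower in both invasive populations. HGF had 249 counts, or 16.1 CPM (exact 95% Poisson interval 14.2 to 18.2), in invasive 1, against 857 counts and 48.1 CPM (44.9 to 51.4) in control 1. In pair 2 it had 144 counts, or 10.4 CPM (8.78 to 12.3), in invasive 2, against 449 counts and 29.1 CPM (26.4 to 31.9) in control 2. Neither invasive library reached the level of either control, and the highest value, in control 1, stood above that of control 2 as well. The groups averaged 13.3 ± 4.02 CPM in invasive and 38.6 ± 13.5 CPM in control populations (SD, n = 2 each). Within the pairs the invasive level was 0.335 times the control level in pair 1 (0.289 to 0.386, exact conditional interval for counting error) and 0.358 times in pair 2 (0.295 to 0.433). On the log2 scale, with a prior count of 2, these differences were −1.57 and −1.47, a gap of 0.10 between the pairs. In pair 1, 29 of the 14231 tested genes had a lower log2 difference than HGF, and in pair 2, 100 had. Fewer cells expressing HGF and less HGF RNA per cell cannot be told apart in such bulk libraries, and counts per gene do not separate full-length HGF transcripts from the truncated forms the gene is known to make.

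**Figure D1:**
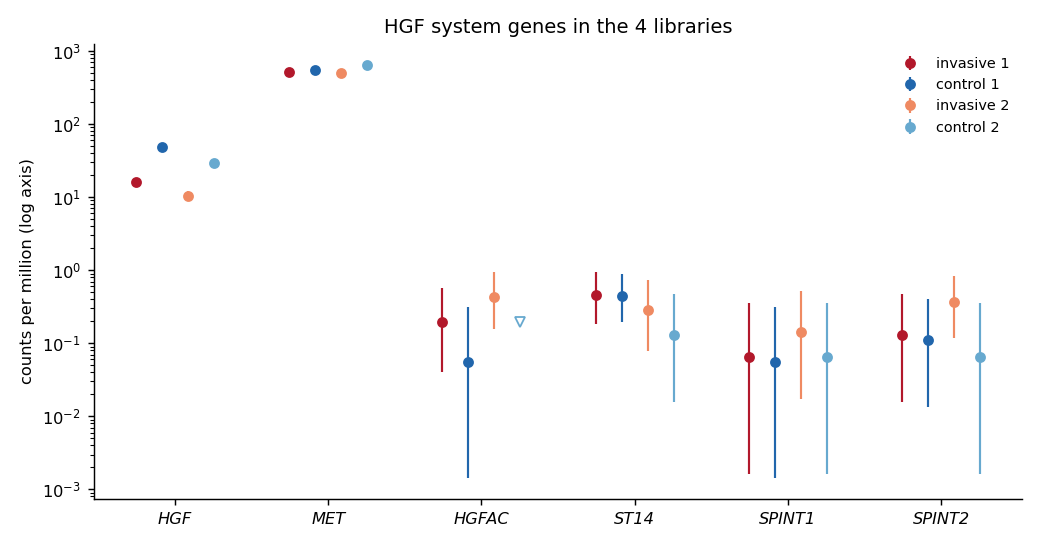
CPM of the 6 genes in each library on a log axis, with exact 95% Poisson intervals; the open triangle is the level of 3 counts, 0.194 CPM, for HGFAC in control 2, which had 0 counts. HGF is lower in each invasive library than in its control, MET lies between 503 and 638 CPM, and the other 4 genes lie below 0.5 CPM.

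The receptor was abundant in every library and differed far less. MET had 7926 counts, or 512 CPM (501 to 524), in invasive 1, against 9645 counts and 541 CPM (531 to 552) in control 1. In pair 2 it had 6959 counts, or 503 CPM (491 to 515), in invasive 2, against 9850 counts and 638 CPM (625 to 651) in control 2. The invasive libraries lay close together and under both controls, of which control 2 was the higher. Group means were 508 ± 6.55 CPM in invasive and 590 ± 68.2 CPM in control populations (SD, n = 2 each), and the log2 differences were −0.08 in pair 1 and −0.34 in pair 2. The intervals cover counting error only, and with 1 library per population the spread between repeated cultures was not measured. Both HGF and MET had both invasive values below both control values, as did 19.7% of the 14231 genes tested. HGF was at least 2-fold lower in invasive than in control cells in each pair, as were 0.899% of the tested genes in pair 1, 2.05% in pair 2 and 0.176% in both.

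Set per length, the receptor transcript exceeded the ligand transcript in each library, and by more in the invasive ones. Levels were scaled by the summed exon length of each gene in GENCODE 29, 9817 bases for HGF and 7039 for MET, and scaled so that each library sums to 1000000. On this scale HGF had 6.59 and 4.23 in invasive 1 and 2, against 19.8 and 11.9 in control 1 and 2. MET had 293 and 285 in invasive 1 and 2, against 311 and 366 in control 1 and 2. The per-length ratio of MET to HGF was 44.4 in invasive 1 and 67.4 in invasive 2, against 15.7 in control 1 and 30.6 in control 2. Among 28848 genes with a length, MET ranked 476 and 495 in the invasive libraries and 448 and 371 in the controls, while HGF ranked 10347 and 11345 in the invasive libraries and 7024 and 8623 in the controls. The exon length joins all annotated transcripts, so the size of each ratio depends on which of them U87MG uses.

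**Figure D2:**
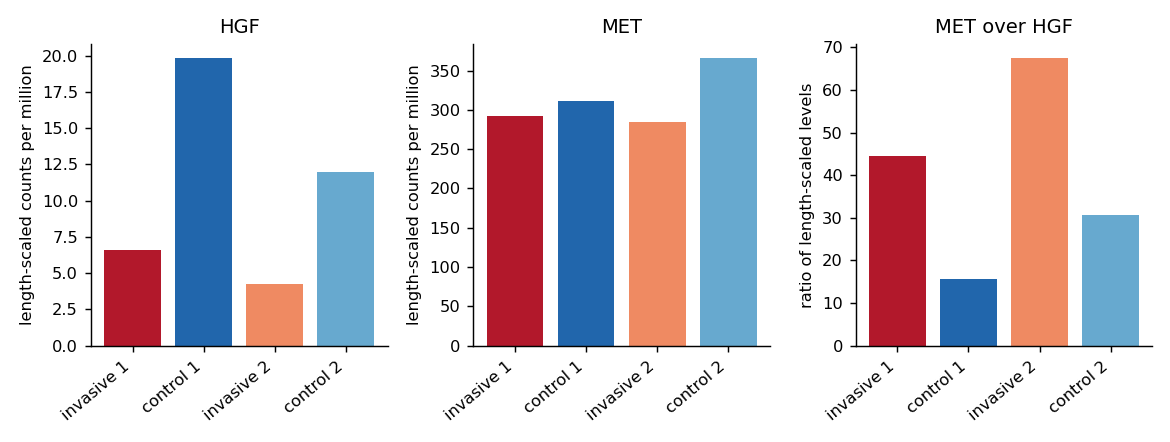
Length-scaled CPM of HGF and MET and their ratio in each of the 4 libraries; each bar is 1 library. HGF is 6.59 and 4.23 in the invasive libraries and 19.8 and 11.9 in the controls, and the ratio of MET to HGF is 44.4 and 67.4 in the invasive libraries and 15.7 and 30.6 in the controls.

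HGFAC and ST14, which cut the HGF precursor, were at the edge of detection. HGFAC (chromosome 4, 3441887 to 3449495) had 3 and 6 counts in invasive 1 and 2, against 1 and 0 in control 1 and 2. The invasive counts were higher in each pair. The ratio of invasive 1 to control 1 was 3.46, with a counting interval from 0.277 to 181. In pair 2 the level was 0.434 CPM (0.159 to 0.944) in invasive 2, and 0 counts in control 2 allow a level of up to 0.194 CPM. The counting interval of the ratio in pair 2 began at 1.31 and, with 0 counts in control 2, had no upper end. ST14 (chromosome 11, 130159562 to 130210376) had 7 and 4 counts in invasive 1 and 2, against 8 and 2 in control 1 and 2. Its groups overlapped, and the ratio in pair 1 was 1.01 (0.311 to 3.18).

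The inhibitors of those proteases were at the same low level. SPINT1 (chromosome 15, 40844018 to 40858207) had 1 and 2 counts in invasive 1 and 2, against 1 and 1 in the controls. SPINT2 (chromosome 19, 38244035 to 38292614) had 2 and 5 counts in invasive 1 and 2, against 2 and 1 in control 1 and 2. The ratio in pair 2 was 5.58, but its counting interval ran from 0.625 to 264. The 4 genes together held 13 and 17 counts in invasive 1 and 2, or 0.841 and 1.23 CPM, against 12 and 4 counts in control 1 and 2, or 0.673 and 0.259 CPM. The counting interval of the ratio included 1 in both pairs for ST14, SPINT1 and SPINT2, and in pair 1 for HGFAC. With 1 library per population and counting error only, these intervals do not test a difference between the populations for any of the 4 genes. RP11-532F12.5 overlaps SPINT1 and PPP1R14A overlaps SPINT2 on the opposite strand, each with 0 counts in all libraries, and no gene counted in every library overlaps HGF, MET, HGFAC or ST14.

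Markers of epithelia, where ST14, SPINT1 and SPINT2 are mainly known, were counted in the same libraries. Of 5 such markers, KRT8 had 102 and 13 counts in invasive 1 and 2, against 180 and 7 in control 1 and 2. EPCAM had 35 and 27 counts in invasive 1 and 2, against 28 and 22 in control 1 and 2, and CDH1 had 1 to 5 in each library. Their summed level was 10.5 and 3.47 CPM in invasive 1 and 2, against 13.3 and 2.14 CPM in control 1 and 2. Its bearing on the low counts of the 3 genes was not tested. Pericytes and fibroblasts are mesenchymal cells of the kind that make HGF. Of 4 markers for them, COL1A1 and PDGFRB were higher in the invasive library of both pairs, as were 36% of all tested genes. COL1A1 had 1458 and 873 CPM in invasive 1 and 2, against 624 and 285 CPM in control 1 and 2, and made up most of the summed level, which was 1498 and 903 CPM in invasive 1 and 2, against 656 and 314 CPM in control 1 and 2. RGS5 had 3.10 and 3.04 CPM in invasive 1 and 2, against 3.20 and 2.85 CPM in control 1 and 2. DCN had 1.68 and 1.74 CPM in invasive 1 and 2, against 0.842 and 4.40 CPM in control 1 and 2. PDGFRB, a defining receptor of pericytes, had 34.6 and 25.2 CPM in invasive 1 and 2, against 28.1 and 22.0 CPM in control 1 and 2. The part of these markers in the HGF level was not tested.

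The pairs themselves were compared with each other, a contrast that played no part in choosing the genes. HGF was lower in pair 2 than in pair 1, with 10.4 CPM in invasive 2 and 29.1 CPM in control 2 against 16.1 CPM in invasive 1 and 48.1 CPM in control 1. Its log2 fold change of −0.69 ± 0.12 (SE) did not pass (edgeR quasi-likelihood test with the group in the model, Benjamini-Hochberg adjusted over 14231 genes, adjusted p = 0.124), and 0.0984% of tested genes did. MET had 0.10 ± 0.11 (adjusted p = 0.695). Over the alternatives the adjusted p of HGF ranged from 0.00019, with no filter on low counts, to 1.00. Without control 1, in a fit with no group term, its log2 fold change was 0.31.

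The other genes of the HGF and MET system were counted in 12 lists holding 137 genes, of which 112 passed the filter. Invasive populations were set against controls by the edgeR quasi-likelihood test blocked on pair, with Benjamini-Hochberg adjustment over all 14231 genes. None of the 112 passed at an adjusted p under 0.05, while 0.239% of all tested genes were called higher and 0.0351% lower. At an unadjusted p under 0.05, 9 of the 112 were higher and 21 lower, against 9.82% and 8.41% of all tested genes. In both pairs 32 were higher, against 36% of all tested genes, and 41 lower, against 29.3%. DESeq2 with the pair in its design called 0 higher and 2 lower, TFPI2 and VEGFA, against 0.998% and 0.204% of all tested genes. The median log2 fold change was −0.06 over the 112 genes and 0.01 over all genes tested.

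**Figure D3:**
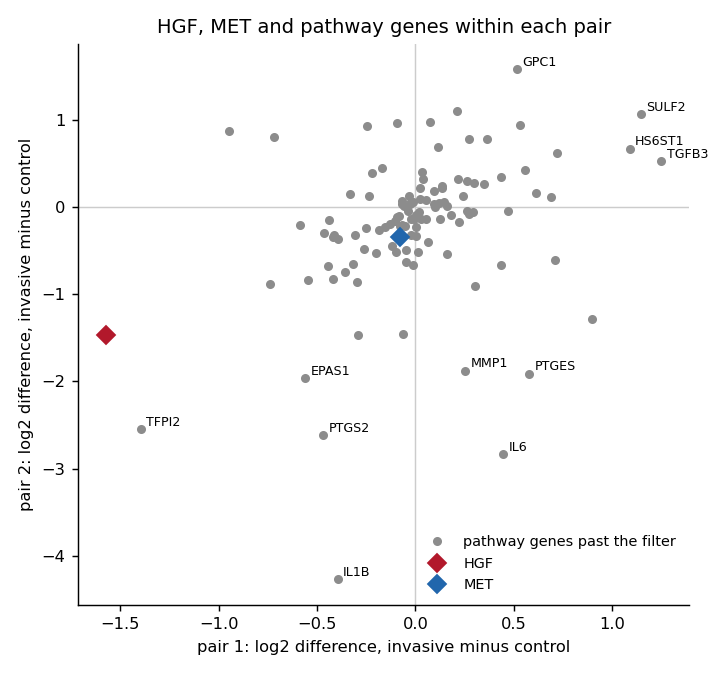
Log2 difference of CPM, invasive minus control, in pair 1 (horizontal) and pair 2 (vertical) for HGF, MET and the 112 pathway genes past the filter, with no error bars since each pair holds 1 library per group. HGF lies at −1.57 and −1.47, MET at −0.08 and −0.34, and IL1B, IL6, PTGES and PTGS2 stand low in pair 2.

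Further serine proteases that can cut the HGF precursor, or that act in the cascades around it, were also mostly scarce. Of 14 listed, 12 failed the filter, among them HPN (hepsin) with 0 counts in every library, TMPRSS13 with 0 and PRSS8 (prostasin) with 3, 0, 0 and 0 counts in invasive 1, invasive 2, control 1 and control 2. Those that passed were the plasminogen activators. PLAU (urokinase) had 439 and 504 CPM in invasive 1 and 2, against 552 and 455 CPM in control 1 and 2. PLAT (tissue plasminogen activator) had 10.8 and 7.95 CPM in invasive 1 and 2, against 7.02 and 7.12 CPM in control 1 and 2.

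Among 8 other serine protease inhibitors, 4 passed the filter, 0 were called, and the median log2 fold change was −0.28. TFPI2, a matrix-bound Kunitz inhibitor, had 314 and 459 CPM in invasive 1 and 2, against 826 and 2684 CPM in control 1 and 2 (log2 fold change −1.99 ± 0.35, adjusted p = 0.16). It was lower in both invasive libraries, with control 2 far above the rest. TFPI, the related inhibitor of the clotting pathway, had −0.57 ± 0.12 (adjusted p = 0.108), and SERPINE2, an inhibitor of thrombin and urokinase, 0.47 ± 0.10 (adjusted p = 0.108). MST1R (RON), the nearest relative of MET, had 1 or 2 counts in each library. MST1, its ligand and the paralogue of HGF, had 2.78 and 3.54 CPM in invasive 1 and 2, against 2.30 and 2.85 CPM in control 1 and 2, and shares sequence with pseudogenes, so its counts are uncertain.

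All 10 genes listed for maturation and shedding of MET passed the filter, and 0 were called (median log2 fold change 0.07). FURIN, which cuts the MET precursor, had 94.7 and 128 CPM in invasive 1 and 2, against 110 and 97.5 CPM in control 1 and 2. ADAM10, a protease that sheds the MET ectodomain, had 254 and 259 CPM in invasive 1 and 2, against 207 and 215 CPM in control 1 and 2 (log2 fold change 0.27 ± 0.10, adjusted p = 0.23).

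Of 19 surface partners of MET, 17 passed the filter and 0 were called (median 0.12). CD44, whose variant forms serve as a MET co-receptor, had 1554 and 1755 CPM in invasive 1 and 2, against 2146 and 2162 CPM in control 1 and 2 (log2 fold change −0.40 ± 0.11, adjusted p = 0.158). PLXNB3, a plexin that binds MET, had 0.66 ± 0.13 (adjusted p = 0.1005). The glypican GPC1, a heparan sulfate carrier, had 164 and 221 CPM in invasive 1 and 2, against 115 and 74.1 CPM in control 1 and 2 (1.02 ± 0.34, adjusted p = 0.30). NRP2, a neuropilin, had −0.78 ± 0.47 (adjusted p = 0.516), with 362 CPM in control 2, while the other 3 libraries had 131 to 158 CPM.

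Heparan sulfate binds HGF and promotes its contact with MET. Of 10 genes for its synthesis and editing, 7 passed the filter and 0 were called (median 0.03). HS6ST1, a 6-O-sulfotransferase, had 30.5 and 20.8 CPM in invasive 1 and 2, against 14.3 and 13.0 CPM in control 1 and 2 (0.87 ± 0.15, adjusted p = 0.0934). NDST1, an N-sulfotransferase, had 0.25 ± 0.10 (adjusted p = 0.265). SULF2, which removes 6-O-sulfate, had 1.32 ± 0.50 (adjusted p = 0.24) on 12 and 15 counts in invasive 1 and 2, against 5 and 7 in control 1 and 2.

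Adaptors and effectors of MET varied little. All 23 passed the filter, 0 were called and the median was −0.03. PTPN11, the phosphatase SHP2, had 362 and 413 CPM in invasive 1 and 2, against 430 and 489 CPM in control 1 and 2 (−0.27 ± 0.10, adjusted p = 0.238). The adaptor CRKL had −0.38 ± 0.11 (adjusted p = 0.167) and the focal adhesion kinase PTK2 −0.31 ± 0.11 (adjusted p = 0.229). GAB1, the docking protein of MET, had 17.1 and 19.96 CPM in invasive 1 and 2, against 15.8 and 12.4 CPM in control 1 and 2.

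Negative regulators numbered 13, all past the filter and 0 called (median −0.16). CBLB, a ubiquitin ligase of the family that marks MET for degradation, had 36.5 and 42.4 CPM in invasive 1 and 2, against 25.3 and 22.0 CPM in control 1 and 2 (0.72 ± 0.14, adjusted p = 0.104). SPRY2, a feedback inhibitor of ERK signalling, had 108 and 96.7 CPM in invasive 1 and 2, against 144 and 123 CPM in control 1 and 2 (−0.40 ± 0.09, adjusted p = 0.128). SOCS3, an inhibitor of STAT3 signalling, had −0.90 ± 0.37 (adjusted p = 0.362), with 134 CPM in control 2, while the other 3 libraries had 48.3 to 81.1 CPM.

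More of the ERK-responsive and HGF-responsive genes had lower than higher values in invasive cells, though none passed the adjusted test. All 21 passed the filter and 0 were called, and at an unadjusted p under 0.05, 11 were lower, against 8.41% of all tested genes, and 0 higher, against 9.82%. In both pairs 13 were lower, against 29.3% of all tested genes, and 2 were higher, against 36%. Those higher in both pairs were ETV1, an ETS factor with a log2 fold change of 0.052, and HMOX1, haem oxygenase 1 with 0.63, neither past the test. The median of the list was −0.33, against 0.01 over all genes tested. Such genes answer many receptors besides MET, and the list was written with results of these libraries known. ETV4, an ETS factor induced by ERK, had 12.6 and 13.9 CPM in invasive 1 and 2, against 21.2 and 25.6 CPM in control 1 and 2 (−0.83 ± 0.14, adjusted p = 0.0843). HBEGF, a ligand of the EGF receptor, had 29.5 and 35.7 CPM in invasive 1 and 2, against 43.2 and 64.2 CPM in control 1 and 2 (−0.72 ± 0.12, adjusted p = 0.0843). VEGFA, the angiogenic factor, had 411 and 364 CPM in invasive 1 and 2, against 559 and 584 CPM in control 1 and 2 (−0.58 ± 0.11, adjusted p = 0.0968). For ETV4, HBEGF and VEGFA both invasive values lay below both control values. Other genes of the list showed the same, as did 19.7% of the 14231 genes tested. PTGS2, the inducible cyclooxygenase, had −1.74 ± 0.73 (adjusted p = 0.399), and MMP1, a collagenase, −0.997 ± 0.67 (adjusted p = 0.538). Both stood highest in control 2. The log2 difference of PTGS2 was −0.47 in pair 1 and −2.62 in pair 2, and that of MMP1 was 0.25 and −1.88. Without control 2, in a fit with no pair block, the log2 fold changes were 0.039 and 0.78.

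**Figure D4:**
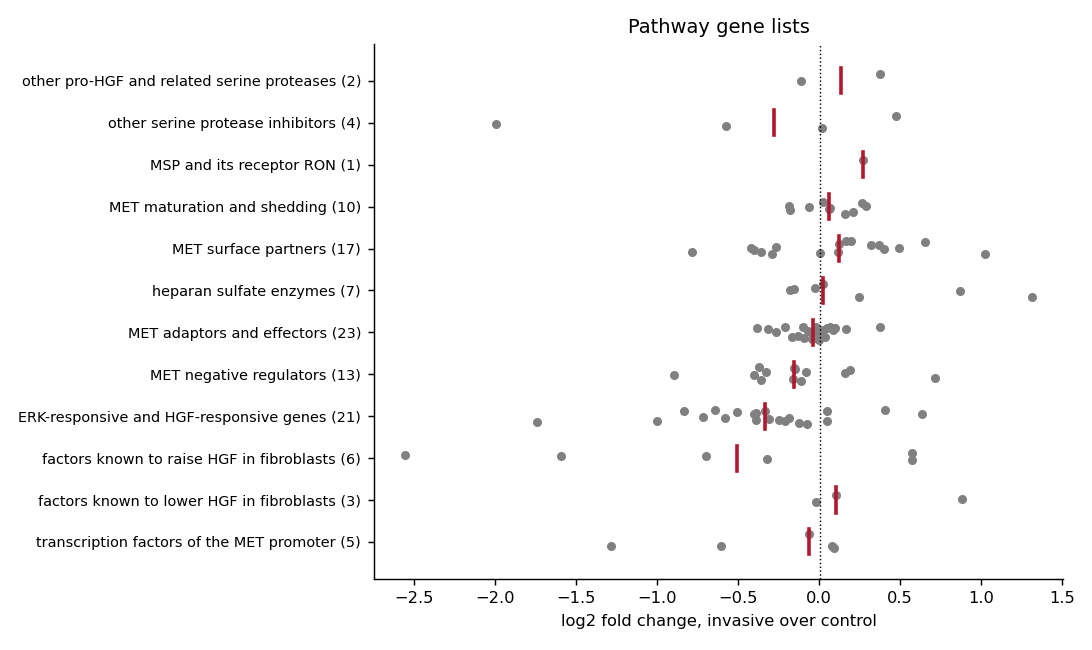
Log2 fold change, invasive over control, of each pathway gene past the filter (grey points, spread vertically only for legibility), by list with the number of genes in brackets; red bars are list medians and the dotted line is the median of all 14231 genes, 0.01. The list of ERK-responsive and HGF-responsive genes has a median of −0.33, and no point passed the adjusted threshold.

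Factors known to raise HGF in fibroblasts differed among themselves, and their part in the HGF level was not tested. Of 9 listed, 6 passed the filter and 0 were called (median −0.51), and the median of their differences within pairs, on the log2 scale, was 0.33 for pair 1 but −1.41 for pair 2. IL1B had 12.1 and 29.6 CPM in invasive 1 and 2, against 15.9 and 572 CPM in control 1 and 2. IL6 had 3.94 and 7.38 CPM in invasive 1 and 2, against 2.86 and 53.4 CPM in control 1 and 2. These interleukins stood high in control 2, whereas HGF was highest in control 1. PTGES, a prostaglandin E2 synthase, had 155 and 150 CPM in invasive 1 and 2, against 104 and 564 CPM in control 1 and 2. FGF2 had 173 and 334 CPM in invasive 1 and 2, against 140 and 624 CPM in control 1 and 2. IL1B was lower in the invasive library of both pairs, as HGF was. IL6, PTGES and FGF2 were lower in pair 2 and higher in pair 1. The remaining factors past the filter, IL1A and EGF, were higher in the invasive library of both pairs, opposite to HGF.

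The TGF-beta ligands, known to lower HGF in fibroblasts, all passed the filter and 0 of 3 were called (median 0.10). TGFB3 had 15.1 and 11.4 CPM in invasive 1 and 2, against 6.29 and 7.90 CPM in control 1 and 2 (0.88 ± 0.23, adjusted p = 0.143). Both its invasive values lay above both its control values, as did those of 23.7% of the 14231 genes tested. TGFB1 had 109 CPM in each invasive library, against 107 and 93.7 CPM in control 1 and 2. TGFB2 had 25.0 and 32.5 CPM in invasive 1 and 2, against 26.2 and 31.0 CPM in control 1 and 2.

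**Figure D5:**
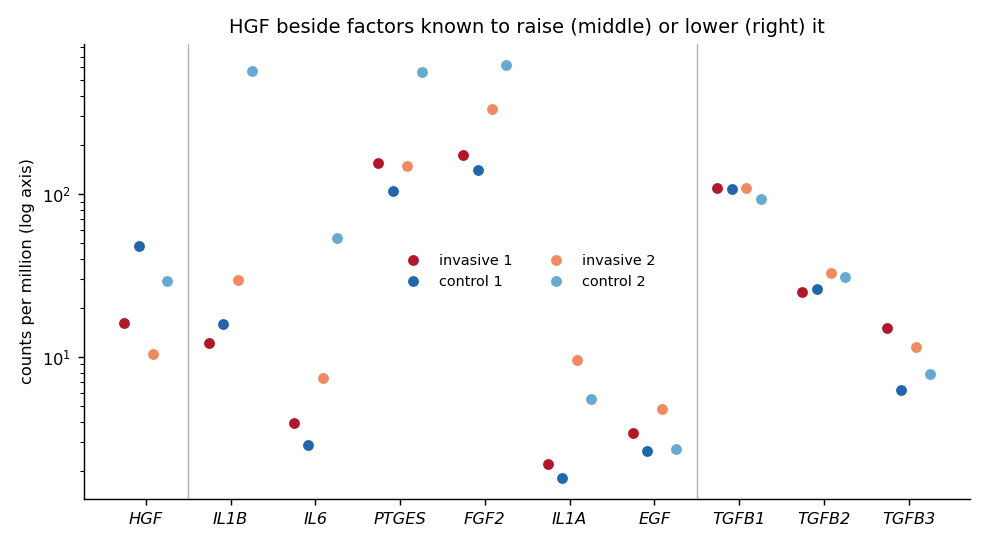
CPM on a log axis in each library of HGF (left), of the factors past the filter that are known to raise it in fibroblasts (middle) and of those known to lower it (right). IL1B stands at 572 CPM in control 2, with the other 3 libraries at 12.1 to 29.6 CPM, and HGF is highest in control 1 at 48.1 CPM.

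Of 5 transcription factors known at the MET promoter, all passed the filter and 0 were called (median −0.06). ETS1 had 58.1 and 86.3 CPM in invasive 1 and 2, against 71.3 and 157 CPM in control 1 and 2 (−0.60 ± 0.14, adjusted p = 0.132), and its log2 fold change was −0.017 without control 2 and −1.13 without control 1. EPAS1 (HIF-2 alpha) had 228 and 167 CPM in invasive 1 and 2, against 336 and 652 CPM in control 1 and 2 (−1.28 ± 0.47, adjusted p = 0.353). HIF1A had 726 and 709 CPM in invasive 1 and 2, against 601 and 749 CPM in control 1 and 2.

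The protein-coding genes past the filter around HGF on chromosome 7 did not share its difference. A non-coding RNA with few counts was lower but did not pass the test. Neighbours that failed the filter had too few counts to compare. The files place 7 genes within 1 Mb of HGF, of which 4 passed the filter, 0 were called and 1 had an unadjusted p under 0.05, against 18.2% of all tested genes. That gene was AC010091.1, a long intergenic non-coding RNA 72790 bases from HGF, with 3.62 and 1.01 CPM in invasive 1 and 2, against 5.72 and 3.24 CPM in control 1 and 2 (log2 fold change −1.07 ± 0.33, adjusted p = 0.186). In fits with no pair block, its log2 fold change was −2.17 without invasive 1, −0.34 without invasive 2 and −0.48 without control 1. It was lower in both invasive libraries, with the control 2 value below that of invasive 1. The protein-coding neighbours had log2 fold changes of −0.01 for CACNA2D1, 0.12 for SEMA3C and 0.17 for PCLO. Around MET, 8 of 18 genes passed the filter, with 0 called and log2 fold changes from −0.12 to 0.54. CAV1, the caveolin gene upstream of MET, had 1057 and 1081 CPM in invasive 1 and 2, against 916 and 818 CPM in control 1 and 2 (0.29 ± 0.11, adjusted p = 0.251). CAPZA2, 12684 bases downstream of MET, had 141 and 149 CPM in invasive 1 and 2, against 162 and 150 CPM in control 1 and 2.

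Genes whose pattern over the 4 libraries lay nearest to that of HGF or MET were sought among 9327 other protein-coding genes with a mean of at least 10 CPM, by Euclidean distance between log2 CPM values centred on each gene's mean. For HGF the 5 nearest were SLCO4A1, HMGA1, PAQR5, LAMA5 and PPAP2C, at distances from 0.64 to 0.80 log2 units. SLCO4A1, an organic anion transporter, had 8.21 and 8.68 CPM in invasive 1 and 2, against 24.8 and 22.3 CPM in control 1 and 2, a difference as deep as that of HGF but with nearly equal controls. HMGA1, a chromatin protein, had 427 and 270 CPM in invasive 1 and 2, against 746 and 519 CPM in control 1 and 2, and LAMA5, a laminin chain, 39.8 and 32.0 CPM in invasive 1 and 2, against 84.2 and 46.4 CPM in control 1 and 2. Like HGF, both were lower in each library of pair 2 than in the library of the same group in pair 1, and their differences between invasive and control were smaller than that of HGF. For MET the 5 nearest, SPPL3, CCNC, PSMG2, DCUN1D4 and ECHDC1, lay at 0.018 to 0.037 log2 units. SPPL3, an intramembrane protease, had 40.02 and 39.6 CPM in invasive 1 and 2, against 42.7 and 50.7 CPM in control 1 and 2, and like MET was highest in control 2.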

How the data were processed

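Polyadenylated RNA of 4 U87MG populations was sequenced, 1 library each. The authors deposited raw counts for each Ensembl gene and, separately, scores, which are normalized values rounded to whole numbers by a method that no header or label names; the deposited scores served 1 alternative. The submitters' processing notes name GRCh38, HTSeq, DESeq2, Bowtie, TopHat2 2.0.12 and bcl2fastq 1.8.4 without their roles, and no source says if reads were counted by strand. The 29387 genes in all 4 count files were analysed.

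CPM were computed here from the deposited counts, scaled to a library total of 1000000. Genes were filtered with filterByExpr by group (minimum count 10, minimum total 15) and tested with edgeR 4.0.16 (R 4.3.3; limma 3.58.1, DESeq2 1.42.0 as an alternative): TMM, robust quasi-likelihood F test, two-sided, Benjamini-Hochberg adjustment at 0.05. The pair was a block, because the design text says that each control was analysed with its invasive population; differences between same-group libraries correlated between the groups (r = 0.283). With 1 residual degree of freedom, the spread leans on a prior worth 5.45, and labels do not say what separates the populations beyond independent derivation, so p-values measure the spread between these libraries. The test was checked on simulated data.

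The members and lists were chosen with earlier results of these data known. Named genes were, per list, up to 4 with the highest mean CPM and up to 4 with the largest log2 fold change, of which those needed to describe a list are given; the 5 nearest in pattern; and neighbours within 1 Mb. HPN, TMPRSS13, PRSS8, MST1R, ETV1, HMOX1 and EGF fall outside this rule and were chosen after their values were seen. Sequences are from RefSeq, and lengths from GENCODE 29. Alternatives were RLE factors, no filter, no block, DESeq2 and leaving out each library. A gene withheld from this text is not reported here.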

Additional observations from a re-analysis of the deposited data

How the results depend on the processing

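The log2 differences of the 6 genes within each pair stayed inside their counting intervals with a prior count of 0.5, TMM-scaled library sizes or the authors' normalized values, which give no value in pair 2 for the 4 scarce genes; for HGF they ran from −1.63 to −1.47. The counts of called genes moved widely. Against 34 genes higher and 5 lower, RLE factors gave 80 and 9, no filter 760 and 693, and DESeq2 142 and 29. With no replicate block 2 were higher and 0 lower. Leaving out each library gave 8 to 83 higher and 0 to 87 lower. Of the pathway genes 0 were called in either direction, also with RLE factors and with no replicate block; no filter gave 8 higher and 18 lower, and DESeq2 0 and 2. Leaving out each library gave 0 to 1 higher and 0 to 8 lower, the 1 and the 8 without control 1. The genes differing between the pairs numbered 14, and 33 with RLE factors, 962 with no filter, 84 with DESeq2, 0 with no replicate block and 0 to 175 without a library. For that contrast HGF had −1.65 to 0.31 and MET −0.084 to 0.27 without a library. PTGS2 had −3.05 to 0.039 and MMP1 −2.30 to 0.78, with positive values without control 2. Also without control 2, TFPI2 had −1.13, NRP2 −0.20, EPAS1 −0.80 and HBEGF −0.44. Of 29 single fold changes, with HGF and MET between the pairs among them, 16 passed with no filter and 2 with DESeq2. HGF between the pairs is among the 16. Both settings also called more of all genes, as given above. The cause of these moves was not tested. Fits without a library have no block and assume that the lone library varies like the other group. Depth limits HGFAC, ST14, SPINT1 and SPINT2, which had 21 counts or fewer in all.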
